A study of Mus musculus with 18 samples.

Results

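The immunoglobulin gene segments are the genomic pieces from which B cells assemble antibodies. They were taken as all genes annotated as immunoglobulin constant (C), variable (V), joining (J), diversity (D) or leader-variable (LV) genes, without pseudogenes, that had at least 10 counts summed over 18 mouse liver libraries. This left 175 of 268 such genes, out of 55385 genes counted. The members were 11 of 13 C genes and 164 of 218 V genes. None of the 14 J, 19 D and 4 LV genes reached 10 counts. At the edge of the rule, 8 members had 10 to 12 counts, and 5 excluded segments had 7 to 9.

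Polyadenylated RNA from whole adult liver was sequenced in 3 genotypes, with 6 libraries (3 females and 3 males) in each. Dp16 mice carry a segmental duplication of mouse chromosome 16, from Lipi to Zbtb21, and are used as a model of trisomy 21. Dp16-2xIFNRs mice carry the same duplication with the interferon receptor genes Ifnar1, Ifnar2, Ifngr2 and Il10rb returned to the normal dosage. Wild-type mice were C57BL/6J. No mouse was treated, and ages ran between 17.1 and 18.0 weeks. The duplication is present in every cell, so the liver, the blood in it and the immune cells all carry it. The design asks how the duplication changes the liver and which changes depend on the extra interferon receptor copies. Ifnar1, an interferon receptor subunit, averaged 23.1 ± 3.15 CPM (counts scaled to a common library size) in Dp16-2xIFNRs, 33.6 ± 7.04 CPM in Dp16 and 22.3 ± 2.32 CPM in wild-type livers (SD, n = 6 each). That is 1.03 and 1.503 times the wild-type mean, in the direction the genotype labels give. In the same order these ratios were 1.107 and 1.431 for Ifnar2, 0.951 and 1.275 for Ifngr2, and 1.115 and 1.655 for Il10rb. For Ifngr2 the Dp16 range (26.8 to 51.2 CPM) overlapped that of wild-type livers (20.4 to 40.0 CPM). Outside the receptors, the ratios were 1.258 and 1.7 for App and 1.667 and 1.301 for Sod1, 2 other genes of the duplicated segment. Libraries held 38236222 to 59923315 counts in genes. The library sizes behind the CPM were adjusted by TMM factors (trimmed mean of M values), which ran between 0.803 (Dp16 library 4) and 1.34 (Dp16 library 5).

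An antibody is built of heavy and light chains. In each developing B cell, V, D and J segments are joined in the genome to encode the antigen-binding end, and the joined exon is spliced to a constant region that fixes the antibody class. Activated B cells can exchange the IgM constant region for an IgG or IgA one (class switching), and plasma cells, the antibody-secreting end stage, fill much of their mRNA pool with immunoglobulin transcripts. In mice, interferon gamma is a known inducer of switching to IgG2a and IgG2c, and C57BL/6 mice carry Ighg2c in the place of Ighg2a. In liver, plasma cells and B cells are a minor population among hepatocytes.

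The 7 heavy chain constant members lie on chromosome 12 between positions 113254830 and 113422730 (GRCm38, the build of the submitters' processing). The 75 heavy V members lie between 113588267 and 116000461. The kappa light chain V members, 86 in number, lie on chromosome 6 between 67555497 and 70704177, beside the kappa constant gene Igkc at 70726435 to 70726966. The lambda locus, with 3 V and 3 constant members, spans 19061618 to 19260859 on chromosome 16. The duplicated segment runs from 75540514 to 97962622 on that chromosome, so every member lies outside it.

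The 4 IgG constant genes are told apart in short reads by where their sequences differ, and the hinge exon, which joins the antigen-binding arms to the stem, is a short stretch in which they differ in length and sequence. Each hinge exon is the second coding exon, taken from GRCm38 with GENCODE M21 exon bounds, on the minus strand. Capitals mark in-frame cysteine codons. Hinge cysteines form disulfide bridges between the heavy chains, though not every marked codon need do so. The positions are chr12:113329844-113329882 for Ighg1, chr12:113307261-113307326 for Ighg2b, chr12:113288263-113288325 for Ighg2c and chr12:113360529-113360576 for Ighg3.
Ighg1: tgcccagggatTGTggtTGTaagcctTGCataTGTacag
Ighg2b: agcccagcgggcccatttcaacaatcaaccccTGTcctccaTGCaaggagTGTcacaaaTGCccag
Ighg2c: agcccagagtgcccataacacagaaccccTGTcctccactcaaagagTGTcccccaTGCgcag
Ighg3: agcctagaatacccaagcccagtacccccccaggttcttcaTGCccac

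The hinges are 39 bases with 4 cysteine codons in Ighg1, 66 bases with 4 in Ighg2b, 63 bases with 3 in Ighg2c and 48 bases with 1 in Ighg3. Over the whole coding sequence Ighg2b and Ighg2c were 87.8% identical, with a longest identical run of 78 bases, and the other IgG pairs were 76.7% to 78.9% identical, with longest runs of 37 to 88 bases. These runs are shorter than a read of 150 bases. Iglc2 and Iglc3 were 96.2% identical with a longest run of 79 bases, also shorter than a read. How far such likeness affects the counts of these 2 genes or of the IgG genes was not examined. The treatment of reads that fit several genes is not stated in the sources used here.

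V segments share a pattern in their last coding bases, and those of the segments that lead the counts below are shown from GRCm38 and GENCODE M21. Each line is the last 60 coding bases of the segment, minus strand. Capitals mark 3 codons in frame, a tyrosine (TAT or TAC), then a tyrosine or phenylalanine (TAT, TAC, TTT or TTC), then the cysteine (TGT or TGC) that anchors the start of the antigen-contacting loop. The bases after the capitals are the part of that loop which the segment itself encodes. The positions are chr12:114788372-114788431 for Ighv1-26, chr12:115912344-115912403 for Ighv1-80, chr12:115920279-115920338 for Ighv1-81, chr6:69438218-69438277 for Igkv4-59, chr6:68631963-68632022 for Igkv10-96, chr6:69764523-69764582 for Igkv12-46 and chr16:19085017-19085076 for Iglv1.
Ighv1-26: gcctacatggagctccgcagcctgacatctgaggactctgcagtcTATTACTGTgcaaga
Ighv1-80: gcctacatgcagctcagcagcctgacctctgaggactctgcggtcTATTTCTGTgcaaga
Ighv1-81: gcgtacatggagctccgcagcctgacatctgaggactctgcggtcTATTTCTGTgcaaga
Igkv4-59: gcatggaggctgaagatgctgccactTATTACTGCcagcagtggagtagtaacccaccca
Igkv10-96: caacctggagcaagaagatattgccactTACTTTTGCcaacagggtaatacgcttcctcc
Igkv12-46: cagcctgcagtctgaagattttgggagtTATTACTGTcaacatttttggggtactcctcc
Iglv1: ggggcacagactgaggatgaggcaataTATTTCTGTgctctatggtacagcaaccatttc

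The 3 codons, searched in frame on the coding strand only, occurred in the last 90 coding bases of 162 of 164 V members (98.8%), against 39 of 21905 protein-coding genes (0.178%). T cell receptor V genes were not among the genes searched, so the pattern was not shown to be particular to immunoglobulin V segments. After them the heavy V segments shown end within a few codons, while the kappa and lambda segments carry most of the loop. V members resemble each other closely. The longest run of bases shared with another of the 218 annotated V genes had a median of 89 and a maximum of 351, and for 14 of 164 V members it was at least as long as a read. Reads of such segments cannot always be told apart, so values of single V segments are less certain than those of their classes.

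Of the counts over all libraries, the 7 heavy constant genes took 55795, Igkc took 52268, the 86 kappa V segments took 22748, the 75 heavy V segments took 6486, the 3 lambda constant genes took 2000 and the 3 lambda V segments took 903. Per length, Igkc led, with 217.8 ± 157 RPKM in Dp16-2xIFNRs, 106 ± 81.8 RPKM in Dp16 and 35.6 ± 32.2 RPKM in wild-type livers (RPKM is a count corrected for gene length and library total; SD, n = 6 each). Ighm, which encodes the IgM heavy chain, followed with mean levels of 31.1, 16.9 and 15.3 RPKM in the same order of genotypes. Ighg2c, Igkv4-59, Igkv10-96, Igha and Ighg2b came next, with means over the 18 libraries between 3.57 and 7.46 RPKM. The IgE gene Ighe and Iglc4 had no count in any library. The J genes together had 19 counts and the D genes none.

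The members' summed level was highest in Dp16-2xIFNRs and lowest in wild-type livers, with wide spread within each genotype. The lowest, median and highest library had 111.5, 271 and 710.1 CPM in Dp16-2xIFNRs, 53.0, 111 and 327 CPM in Dp16, and 38.8, 56.7 and 153 CPM in wild-type livers. The 3 ranges overlapped, and 4 of 6 Dp16-2xIFNRs livers were above the highest wild-type liver. Over all 175 members, the group mean was above the wild-type mean for 164 in Dp16-2xIFNRs and below it for 7, and above it for 149 in Dp16 and below it for 21. The mean in Dp16-2xIFNRs was above that in Dp16 for 132 members and below it for 42. Members share their cells, so these counts are not counts of independent measurements, and the first pair of comparisons shares the wild-type libraries. Members were also chosen on counts summed over all libraries, of which wild-type livers gave 20214, Dp16-2xIFNRs livers 76564 and Dp16 livers 43422. The 50 members with no wild-type count could not be lower in a carrier genotype. The numbers of members above wild-type therefore support nothing by themselves.

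For tests on single genes, edgeR's quasi-likelihood test with genotype and sex terms was fitted to all 18 libraries, over 15208 genes that passed a filter on low counts. A gene was called when its p, adjusted over all 15208 by the Benjamini-Hochberg method, was under 0.05. The filter passed 65 of the 175 members: all 11 constant genes, 9 heavy V, 44 kappa V and 1 lambda V segment. Only 11 of these 65 had counts in all 6 wild-type libraries. Many of the others passed the filter through the genotype in which they were high, so they had to differ, and their number and median support nothing by themselves. The median standard deviation of log2 CPM within a genotype and sex was 1.52 for the tested members and 0.512 for all genes tested. It was 1.18 for 2161 other genes whose level lay between the quartiles of the members'.

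In Dp16-2xIFNRs against wild-type livers, 3 of the 65 tested members were called, all higher: Ighg2b, Ighg2c and Ighg3 (15 genes or 0.0986% of all tested were called). At an unadjusted p under 0.05, 34 members were higher (3.43% of all genes) and 0 were lower (5.23% of all genes). The median log2 fold change was 2.54 for the tested members and -0.02 for all genes, and it was positive for 65 of 65 members and 47.4% of all genes. In Dp16 against wild-type livers, edgeR called 0 members (6 genes or 0.0395% of all), while at an unadjusted p under 0.05 there were 17 higher (2.52% of all genes) and 0 lower (2.35% of all genes). DESeq2 called 6 members in that comparison and limma-voom 0. The share of all genes that either method called is not given here, so their counts of members are not a result about the members. By edgeR the median log2 fold change in Dp16 against wild-type livers was 1.68 for members and 0.01 for all genes. It was positive for 62 of 65 members and 51.4% of all genes. In Dp16-2xIFNRs against Dp16 livers, edgeR called 0 members (0.0% of all genes), with 6 higher (2.21% of all genes) and 0 lower (7.11% of all genes) at an unadjusted p under 0.05, DESeq2 called 1 and limma-voom 0. The median log2 fold change was 0.96 for members and -0.02 for all genes. Whether the 2 carrier genotypes differ from each other in immunoglobulin RNA was therefore not resolved by these libraries.

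**Figure D1:**
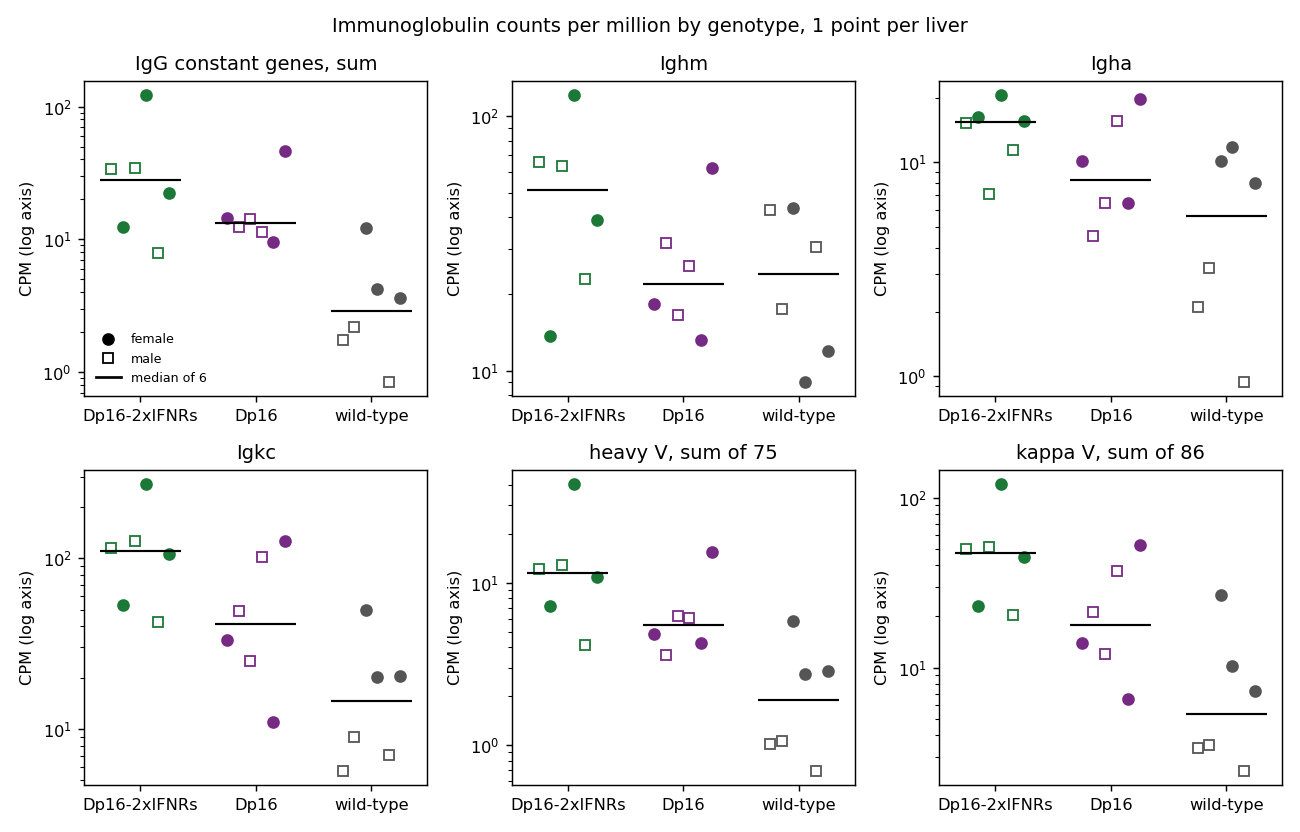
CPM on a log axis for the summed IgG constant genes, Ighm, Igha, Igkc, the 75 heavy V and the 86 kappa V segments, 1 point per liver (filled circles female, open squares male) and a line at the median of 6. The IgG medians are 28.2, 13.3 and 2.89 CPM in Dp16-2xIFNRs, Dp16 and wild-type livers, while the Ighm ranges overlap widely, and the lowest wild-type points are males in the IgG, Igha, Igkc and V panels.

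The IgG constant genes carried the largest differences among the heavy chain classes. Summed over Ighg1, Ighg2b, Ighg2c and Ighg3, the lowest, median and highest library had 7.93, 28.2 and 122 CPM in Dp16-2xIFNRs, 9.49, 13.3 and 46.1 CPM in Dp16, and 0.844, 2.89 and 12.2 CPM in wild-type livers. Only 1 wild-type liver (12.2 CPM) reached into the range of either carrier genotype, and the Dp16 range lay within the Dp16-2xIFNRs range. The ratio of group means was 9.37 for Dp16-2xIFNRs to wild-type, 4.35 for Dp16 to wild-type and 2.16 for Dp16-2xIFNRs to Dp16. A single Dp16-2xIFNRs liver (library 4) had 122 CPM, and without it the ratios were 5.37 for Dp16-2xIFNRs to wild-type and 1.24 for Dp16-2xIFNRs to Dp16. Without wild-type library 3, the highest of that genotype, they were 15.4 for Dp16-2xIFNRs and 7.14 for Dp16 to wild-type.

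Ighg2c encodes the heavy chain of IgG2c. Its lowest, median and highest library had 2.71, 10.8 and 60.6 CPM in Dp16-2xIFNRs, 3.94, 6.25 and 19.9 CPM in Dp16, and 0.308, 1.05 and 5.58 CPM in wild-type livers. Every Dp16 liver was above 5 of the 6 wild-type livers, and the highest wild-type liver stood above the lowest of each carrier genotype. The log2 fold change was 3.53 (SE 0.658, edgeR adjusted p = 0.0370) in Dp16-2xIFNRs against wild-type, 2.51 (SE 0.640, adjusted p = 0.280) in Dp16 against wild-type and 1.02 (SE 0.596, adjusted p = 0.576) in Dp16-2xIFNRs against Dp16.

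Ighg2b, the IgG2b heavy chain gene, had 3.43, 12.4 and 48.8 CPM in its lowest, median and highest Dp16-2xIFNRs library, 4.19, 6.24 and 21.9 CPM in Dp16, and 0.397, 1.74 and 6.33 CPM in wild-type livers. Its order of libraries was close to that of Ighg2c, with the same highest liver in each genotype. The log2 fold change was 3.04 (SE 0.555, edgeR adjusted p = 0.0354) in Dp16-2xIFNRs against wild-type, 2.05 (SE 0.537, adjusted p = 0.289) in Dp16 against wild-type and 0.99 (SE 0.511, adjusted p = 0.544) in Dp16-2xIFNRs against Dp16.

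Ighg3 encodes the IgG3 heavy chain, a class made early and largely in T cell-independent responses in mice. It was nearly undetected in wild-type livers, where the 6 libraries had 2, 0, 0, 2, 0 and 1 counts. The 6 Dp16-2xIFNRs libraries had 68, 23, 363, 148, 36 and 5 counts, and the 6 Dp16 libraries had 5, 26, 0, 17, 11 and 46. Every Dp16-2xIFNRs liver was above every wild-type liver, and library 3 held 363 of the 643 counts of its genotype. On summed counts per effective library size the ratio was 143 (95% exact interval 61.0 to 442, counting error only) for Dp16-2xIFNRs to wild-type, from 643 and 5 counts. Without Dp16-2xIFNRs library 3 it was 75.5. The ratio was 19.8 (8.20 to 62.1) for Dp16 to wild-type, from 105 and 5 counts. The fitted log2 fold change was 6.88 (SE 1.22, edgeR adjusted p = 0.0354) in Dp16-2xIFNRs against wild-type and 4.21 (SE 1.17, adjusted p = 0.376) in Dp16 against wild-type, and both depend on how near-zero counts are treated. In Dp16-2xIFNRs against Dp16 it was 2.67 (SE 0.930, adjusted p = 0.532).

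Ighg1, the IgG1 heavy chain gene, was the only member whose 6 Dp16 libraries all lay above all 6 wild-type libraries (1 of 65 tested members, against 0.138% of all genes). It had 0.895, 1.07 and 8.35 CPM in the lowest, median and highest Dp16-2xIFNRs library, 0.461, 1.15 and 3.52 CPM in Dp16, and 0, 0.123 and 0.327 CPM in wild-type livers, of which 3 had no count. The carrier genotypes had almost the same median. The log2 fold change was 3.78 (SE 0.843, edgeR adjusted p = 0.117) in Dp16-2xIFNRs against wild-type, 3.26 (SE 0.831, adjusted p = 0.280) in Dp16 against wild-type and 0.52 (SE 0.737, adjusted p = 0.784) in Dp16-2xIFNRs against Dp16, so edgeR called it in no comparison, while DESeq2 called it in both carrier genotypes against wild-type. The difference between the carriers was -0.17 without Dp16-2xIFNRs library 4. Complete separation of this kind was seen for 4 members in Dp16-2xIFNRs against wild-type (Ighg1, Ighg3, Igkv4-57-1 and Igkv6-23, against 0.48% of all genes) and for 0 members in Dp16-2xIFNRs against Dp16 (0.0526% of all genes).

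The calls of IgG genes rested on the particular set of libraries. With Dp16-2xIFNRs library 1, 3 or 4, or wild-type library 1, 2, 4, 5 or 6 left out, the number of members called in Dp16-2xIFNRs against wild-type was 0 in place of 3. It was 1 without Dp16 library 2, and 5 without Dp16 library 4 or without Dp16 library 5, which enter the shared estimate of spread. The log2 fold change with 1 library left out stayed between 2.58 and 3.43 for Ighg2b, between 2.85 and 4.15 for Ighg2c and between 6.11 and 7.35 for Ighg3. Their adjusted p ran up to 0.193, 0.193 and 0.121, and 9, 7 and 9 of 18 such fits called them. Under the other settings Ighg2b was called in 9 of 13, Ighg2c in 7 of 13 and Ighg3 in 8 of 11, with adjusted p up to 0.214, 0.279 and 0.348. limma-voom called 0 members here, with 34 higher at an unadjusted p under 0.05 by edgeR, and DESeq2 called 16. For limma-voom and DESeq2 the share of all genes called is not given here.

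**Figure D2:**
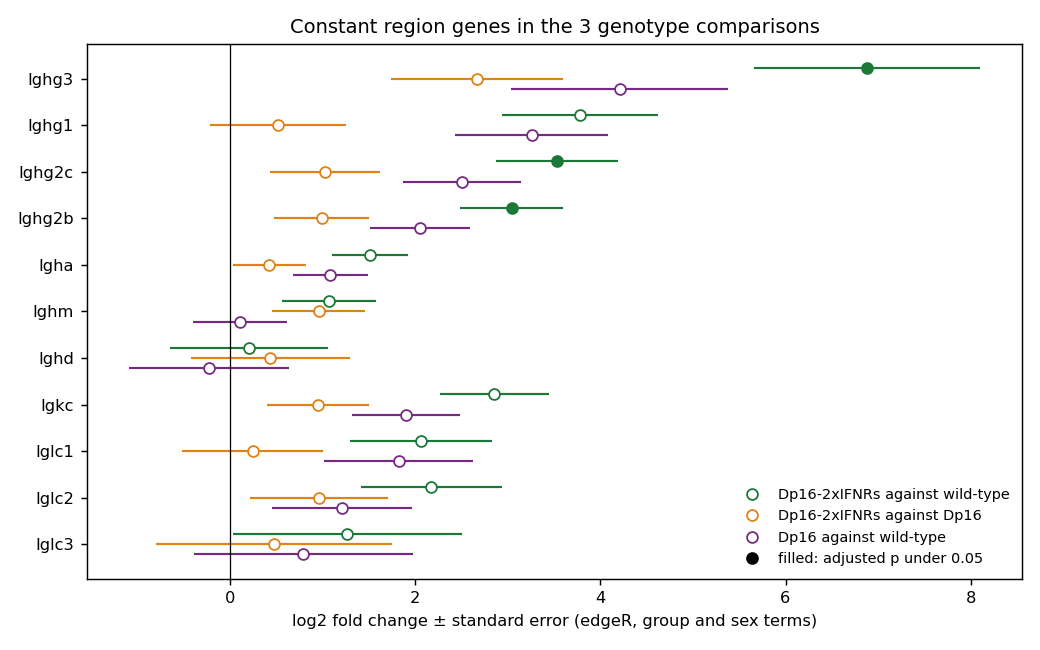
Log2 fold change with its standard error for the 11 constant region genes in the 3 genotype comparisons, from edgeR with genotype and sex terms (filled points, adjusted p under 0.05). The 4 IgG genes and Igkc lie between 1.90 and 6.88 in both comparisons with wild-type, Ighm is at 1.07 and 0.11, and only Ighg3, Ighg2c and Ighg2b in Dp16-2xIFNRs against wild-type are filled.

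Igha, the constant gene of IgA, which guards mucosal surfaces, had 7.14, 15.4 and 20.5 CPM in the lowest, median and highest Dp16-2xIFNRs library, 4.51, 8.30 and 19.7 CPM in Dp16, and 0.943, 5.61 and 11.8 CPM in wild-type livers. The ranges overlapped, and 4 of 6 Dp16-2xIFNRs livers were above all wild-type livers. Its log2 fold change of 1.51 (SE 0.410, edgeR adjusted p = 0.235) in Dp16-2xIFNRs against wild-type and of 1.08 (SE 0.409, adjusted p = 0.803) in Dp16 against wild-type did not pass the test.

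Of the abundant constant genes, Ighm differed least from wild-type livers. It had 13.6, 51.1 and 121 CPM in the lowest, median and highest Dp16-2xIFNRs library, 13.1, 22.0 and 62.3 CPM in Dp16, and 9.02, 24.01 and 43.6 CPM in wild-type livers. The Dp16 and wild-type ranges overlapped over most of their length. The log2 fold change was 1.07 (SE 0.507, edgeR adjusted p = 0.574) in Dp16-2xIFNRs against wild-type, 0.11 (SE 0.504, adjusted p = 0.999) in Dp16 against wild-type and 0.96 (SE 0.504, adjusted p = 0.556) in Dp16-2xIFNRs against Dp16. The value for Dp16 against wild-type was -0.33 without Dp16 library 6. Ighd, the IgD gene that naive B cells express beside Ighm, averaged 1.04 ± 0.824 CPM in Dp16-2xIFNRs, 0.740 ± 0.505 CPM in Dp16 and 0.899 ± 0.750 CPM in wild-type livers (SD, n = 6 each). Its log2 fold changes were 0.21 (SE 0.852), -0.23 (SE 0.861) and 0.44 (SE 0.862) in Dp16-2xIFNRs against wild-type, Dp16 against wild-type and Dp16-2xIFNRs against Dp16.

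The make-up of the heavy chain constant RNA leaned towards IgG in the carriers. The IgG share of heavy constant counts had a lowest, median and highest value of 18.6%, 29.3% and 46.0% in Dp16-2xIFNRs, 21.1%, 32.3% and 37.4% in Dp16, and 2.55%, 12.2% and 18.0% in wild-type livers. Both carrier genotypes lay wholly above wild-type, although 18.6% and 18.0% nearly touch. The medians were 30.9%, 34.5% and 12.6% by RPKM in place of counts. The Ighm share had medians of 51.5% in Dp16-2xIFNRs, 45.9% in Dp16 and 68.6% in wild-type livers, with a range of 34.4% to 92.6% in wild-type, and the Igha share had medians of 16.5%, 19.2% and 14.2%. Shares of a sum depend on each other, and these are descriptions with no test.

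Among the IgG genes, Ighg2c and Ighg2b made up most of the IgG level in the median liver of every genotype. By RPKM, Ighg2c made up a median of 58.2% of IgG in Dp16-2xIFNRs, 61.9% in Dp16 and 59.3% in wild-type livers. Ighg2b made up 30.9%, 32.1% and 36.6%. By counts, without the length correction, the order of these 2 genes was the other way. Ighg2b then made up medians of 44.3%, 47.6% and 53.4% of IgG, and Ighg2c 40.2%, 43.7% and 41.05%. The gene lengths were 2566 bases for Ighg2b and 1214 bases for Ighg2c, so which of them led depended on the unit. Ighg1 and Ighg3 were minor, at medians of 4.53% and 3.23% in Dp16-2xIFNRs, 5.29% and 1.17% in Dp16, and 0.916% and 0.230% in wild-type livers. These shares had lower medians in wild-type livers, where both genes had few counts, and they were not tested. The highest Ighg3 share, 17.8%, was in a Dp16-2xIFNRs liver.

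**Figure D3:**
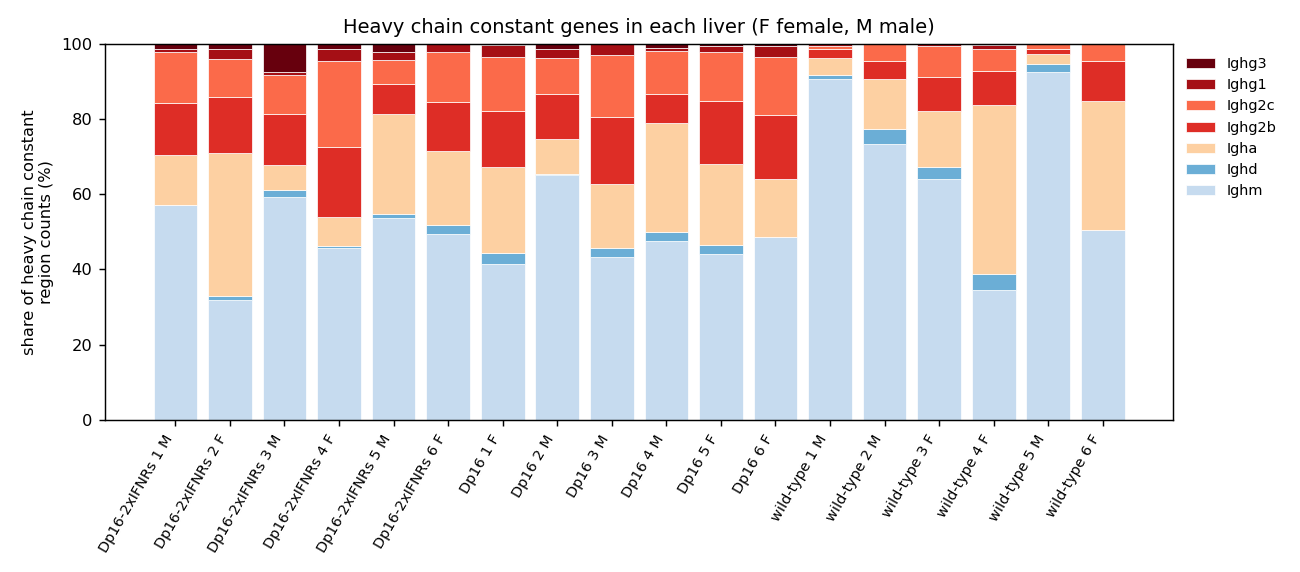
Share of heavy chain constant region counts (in percent, stacked to 100) held by each of the 7 genes in each of the 18 livers, with sex after the library name. The IgG part (reds) is 18.6% to 46.0% in Dp16-2xIFNRs and 21.1% to 37.4% in Dp16, against 2.55% to 18.0% in wild-type livers, where Ighm fills 90.8% and 92.6% of the bars of males 1 and 5.

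Igkc is the only kappa constant gene and stands for most light chains in mice. Its lowest, median and highest library had 42.3, 110.1 and 271 CPM in Dp16-2xIFNRs, 11.1, 41.1 and 125 CPM in Dp16, and 5.71, 14.5 and 49.9 CPM in wild-type livers. Of the 6 Dp16-2xIFNRs livers, 5 were above the highest wild-type liver, while the Dp16 range covered most of the wild-type range. The wild-type mean of 18.7 CPM was 12.5 CPM without its library 3. In the fit the log2 fold change was 2.86 (SE 0.593, edgeR adjusted p = 0.0713) in Dp16-2xIFNRs against wild-type, just outside the threshold, 1.90 (SE 0.585, adjusted p = 0.522) in Dp16 against wild-type and 0.95 (SE 0.552, adjusted p = 0.576) in Dp16-2xIFNRs against Dp16. The lambda constant genes Iglc1, Iglc2 and Iglc3 had log2 fold changes of 2.06 (SE 0.770), 2.18 (SE 0.766) and 1.27 (SE 1.24) in Dp16-2xIFNRs against wild-type, and of 1.82 (SE 0.801), 1.21 (SE 0.757) and 0.79 (SE 1.19) in Dp16 against wild-type, with none called. Lambda genes gave 3.18 ± 0.482% of light chain constant counts in Dp16-2xIFNRs, 4.58 ± 2.25% in Dp16 and 6.51 ± 3.19% in wild-type livers (SD, n = 6 each).

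The balance of light to heavy chain counts was highest in Dp16-2xIFNRs and lowest in wild-type livers in the median. Light constant counts per heavy constant count had medians of 1.14 in Dp16-2xIFNRs, 0.882 in Dp16 and 0.592 in wild-type livers. Igkc counts per Ighm count had medians of 2.12, 1.68 and 0.830 in the same order. The 3 wild-type males stood apart, with 0.134, 0.517 and 0.230 Igkc counts per Ighm count, against 1.14, 2.22 and 1.73 in the 3 wild-type females. In the carrier livers of either sex the ratio was between 0.842 and 3.96. Wild-type males 1 and 5 thus had ordinary Ighm levels (42.6 and 30.6 CPM) beside the 2 lowest Igkc levels of all livers (5.71 and 7.05 CPM).

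**Figure D4:**
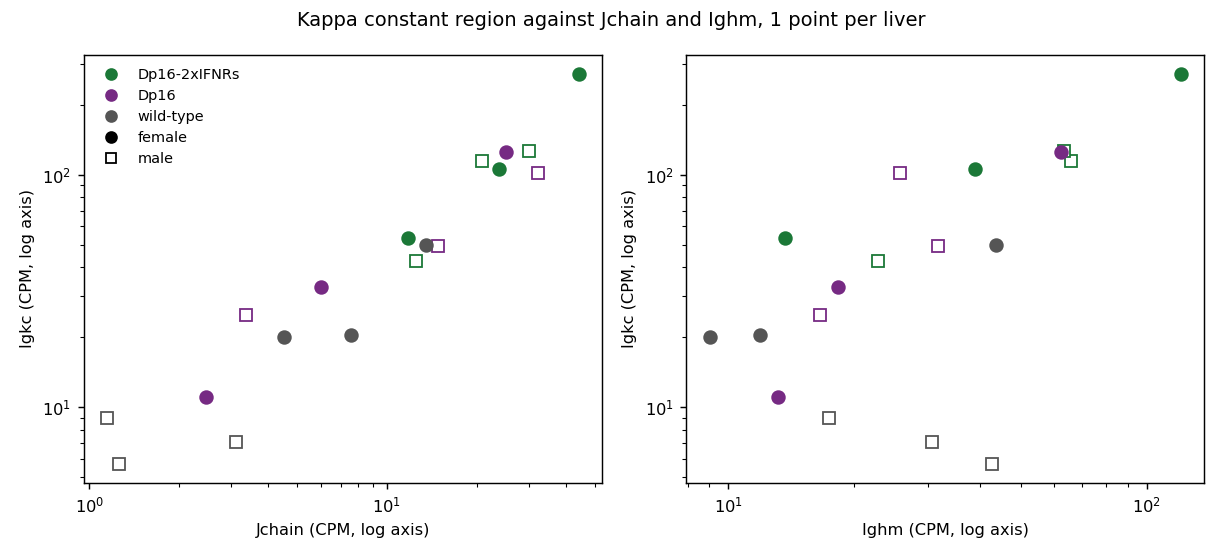
Igkc against Jchain (left) and against Ighm (right), in CPM on log axes, 1 point per liver, coloured by genotype (filled circles female, open squares male). Igkc and Jchain are low and high in the same livers, up to 271 and 44.1 CPM in Dp16-2xIFNRs library 4, while 3 wild-type males with 5.71 to 8.99 CPM of Igkc have 17.4 to 42.6 CPM of Ighm.

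In wild-type livers every female lay above every male for the IgG sum and for Igkc, which was not so in either carrier genotype. For the IgG sum, Dp16-2xIFNRs, Dp16 and wild-type livers had 12.4 to 122, 9.49 to 46.1 and 3.59 to 12.2 CPM in females, and 7.93 to 34.5, 11.4 to 14.3 and 0.844 to 2.18 CPM in males. In males both carrier genotypes lay above wild-type, and in females only Dp16-2xIFNRs did, by a margin of under 1 CPM. For Igkc the ranges in females were 53.4 to 271, 11.1 to 125 and 20.1 to 49.9 CPM, and in males 42.3 to 126, 25.03 to 102 and 5.71 to 8.99 CPM, so that both carrier genotypes lay above wild-type in males, and only Dp16-2xIFNRs did in females.

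The difference between the sexes in the genotype effect was tested with an interaction term. For Dp16 against wild-type, edgeR called 0 members (0.0% of all genes), and at an unadjusted p under 0.05 the effect was smaller in females for 10 members (4.69% of all genes) and larger for 0. For Dp16-2xIFNRs against wild-type it called 0 members (0.0% of all genes), and the effect was smaller in females for 6 members (1.17% of all genes) and larger for 0. For Igkc the interaction was -2.11 (SE 1.05, adjusted p = 0.582) for Dp16 and -1.45 (SE 1.04, adjusted p = 1.00) for Dp16-2xIFNRs on the log2 scale. With 3 livers of each sex and genotype, a sex-dependent genotype effect was neither shown nor bounded closely.

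In female against male livers over all genotypes, 1 member was called, Ighv1-9, higher in females (6.56% of all genes were called). At an unadjusted p under 0.05, 9 members were higher in females (9.44% of all genes) and 0 were lower (9.32% of all genes). Ighv1-9 had no count in 7 of the 9 males, and its log2 fold change was 4.24 (SE 1.14, edgeR adjusted p = 0.0284). It was called under some settings only, and with 1 library left out the number of members called ran between 0 and 3. Several constant genes had positive female over male log2 fold changes without being called, 1.09 (SE 0.335, adjusted p = 0.0596) for Igha, 1.29 (SE 0.429, adjusted p = 0.0825) for Ighg2b and 1.41 (SE 0.503, adjusted p = 0.113) for Ighg2c, against 0.02 (SE 0.412, adjusted p = 0.990) for Ighm.

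The summed V segments had the same order of genotypes as Igkc and IgG. Heavy V segments summed to means of 14.6 ± 13.1 CPM in Dp16-2xIFNRs, 6.73 ± 4.38 CPM in Dp16 and 2.36 ± 1.92 CPM in wild-type livers, and kappa V segments to 51.6 ± 36.1, 23.9 ± 17.4 and 8.93 ± 9.23 CPM (SD, n = 6 each). Without Dp16-2xIFNRs library 4 the heavy V mean in Dp16-2xIFNRs was 9.43 CPM, and without wild-type library 3 the kappa V mean in wild-type livers was 5.36 CPM. The 3 lambda V segments summed to 2.01 ± 1.41, 0.978 ± 0.571 and 0.325 ± 0.148 CPM. Heavy V counts were a median of 19.0%, 23.4% and 21.0% of V counts in Dp16-2xIFNRs, Dp16 and wild-type livers.

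The livers used different V segments. Only 4 of 164 V members had counts in all 18 livers, 44 had counts in 12 or more, and 26 in 3 or fewer. The kappa V segment with most counts was 1 of 8 different segments and the heavy V segment with most counts 1 of 11. Igkv4-59 led the kappa V counts in 4 of 6 Dp16-2xIFNRs livers and in no other liver, Igkv1-110 led in 3 Dp16 livers, 1 Dp16-2xIFNRs liver and 2 wild-type livers, and Ighv1-81 led the heavy V counts in 3 Dp16 livers. In 5 of the 74 V members with at least 100 counts, most counts came from a single liver: Ighv14-4, Igkv8-19 and Ighv1-18 in Dp16-2xIFNRs library 4, and Ighv1-22 and Igkv4-74 in Dp16 library 6. The most lopsided liver was wild-type library 5, where Ighv1-52 gave 20 of 28 heavy V counts.

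The number of V segments seen depends on how many V counts a library has. V members with counts numbered 158 in Dp16-2xIFNRs, 154 in Dp16 and 114 in wild-type livers, from 17440, 9199 and 3498 V counts. Drawn down to 134 V counts, the lowest of any library, the number of segments expected had a median of 51.1 in Dp16-2xIFNRs, 53.6 in Dp16 and 39.7 in wild-type livers, with ranges of 45.9 to 58.2, 35.7 to 67.4 and 16.0 to 48.1. At 134 V counts the median carrier liver thus had more expected segments than the median wild-type liver, with overlapping ranges and no test. Drawing down makes the V counts equal, but not the number of antibody-making cells behind them. The V members were also chosen on counts pooled over all libraries, so the order of genotypes supports nothing by itself. The 10 leading V segments of a liver held a median of 40.1%, 39.1% and 51.1% of its V counts in the same order. In wild-type the group range for those 10 segments ran up to 86.6%.

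By family, Ighv1, the largest heavy V family with 41 members, gave 58.7% of heavy V counts in Dp16-2xIFNRs, 61.6% in Dp16 and 64.8% in wild-type livers. The Igkv4 family, with 23 members, gave 28.2%, 16.2% and 14.0% of kappa V counts, and the Igkv1 family, with 7 members, gave 8.38%, 11.3% and 20.5%. These are sums over 6 livers, in which a liver with many counts weighs more.

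The leading kappa segment, Igkv4-59, had 0.448, 4.20 and 10.6 CPM in its lowest, median and highest Dp16-2xIFNRs library, 0.212, 0.365 and 1.79 CPM in Dp16, and 0, 0.188 and 1.81 CPM in wild-type livers. In 4 Dp16-2xIFNRs livers it was above all others, and the remaining 2 lay among the Dp16 and wild-type values. Against wild-type, its log2 fold change was 3.56 (SE 0.945, edgeR adjusted p = 0.219) in Dp16-2xIFNRs and 0.55 (SE 0.951, adjusted p = 0.999) in Dp16, and between the carriers 3.01 (SE 0.911, adjusted p = 0.532) in Dp16-2xIFNRs against Dp16. Igkv10-96 had log2 fold changes of 3.00 (SE 0.702, adjusted p = 0.129), 1.14 (SE 0.665, adjusted p = 0.999) and 1.86 (SE 0.645, adjusted p = 0.532) in these comparisons. The lambda segment Iglv1 had 2.72 (SE 0.669, adjusted p = 0.142) and 1.44 (SE 0.653, adjusted p = 0.953) in Dp16-2xIFNRs and Dp16 against wild-type.

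Igkv4-57-1, singled out after its values were seen, had 153, 41, 6, 128, 21 and 34 counts in the Dp16-2xIFNRs libraries, 3, 0, 0, 0, 0 and 21 counts in the Dp16 libraries, and 0, 0, 0, 0, 0 and 4 counts in the wild-type libraries. All Dp16-2xIFNRs livers were above all wild-type livers, and only Dp16 library 6 reached into their range among Dp16 livers. On summed counts per effective library size, the ratio was 106.5 (95% exact interval 41.2 to 393, counting error only) for Dp16-2xIFNRs to wild-type, and Dp16 library 6 held 21 of the 24 counts of its genotype. The fit gave an adjusted p of 0.0579 against wild-type and 0.532 against Dp16 (edgeR). Igkv6-23, also separated from wild-type in every Dp16-2xIFNRs liver, had 0.995, 1.58 and 5.54 CPM in the lowest, median and highest Dp16-2xIFNRs library, 0.0624, 0.617 and 1.23 CPM in Dp16, and 0, 0.0927 and 0.558 CPM in wild-type livers (log2 fold change to wild-type 3.76, SE 0.919, edgeR adjusted p = 0.142).

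Heavy V segments were sparser. Ighv9-3 had 0, 44, 42, 99, 0 and 12 counts in Dp16-2xIFNRs and 7, 1, 0, 21, 11 and 23 counts in Dp16 libraries, with none in any wild-type library. For a bound on counting error only, 3 counts were taken as the most that a wild-type sum of 0 allows. The summed level was then at least 73.0-fold higher in Dp16-2xIFNRs and at least 19.8-fold higher in Dp16. These bounds were 42.6-fold without Dp16-2xIFNRs library 4 and 14.75-fold without Dp16 library 4. The fit called neither difference (edgeR adjusted p = 0.183 and 0.522). Ighv9-3 met the count rule through carrier livers alone, so a high ratio followed from the choice and supports nothing by itself. Ighv1-26, the heavy V segment with most counts, had 0.101, 0.278 and 3.71 CPM in the lowest, median and highest Dp16-2xIFNRs library, 0, 0.2197 and 1.68 CPM in Dp16, and 0, 0.103 and 0.481 CPM in wild-type livers. In each carrier genotype 1 or 2 livers carried most of it. Of the 164 V members, 50 had no count in any wild-type liver, against 6 in Dp16-2xIFNRs and 10 in Dp16. Members were chosen on counts summed over all libraries, with 3498 V counts from wild-type, 17440 from Dp16-2xIFNRs and 9199 from Dp16 livers. More members at 0 in wild-type livers thus follow in part from the rule and from the number of V counts.

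**Figure D5:**
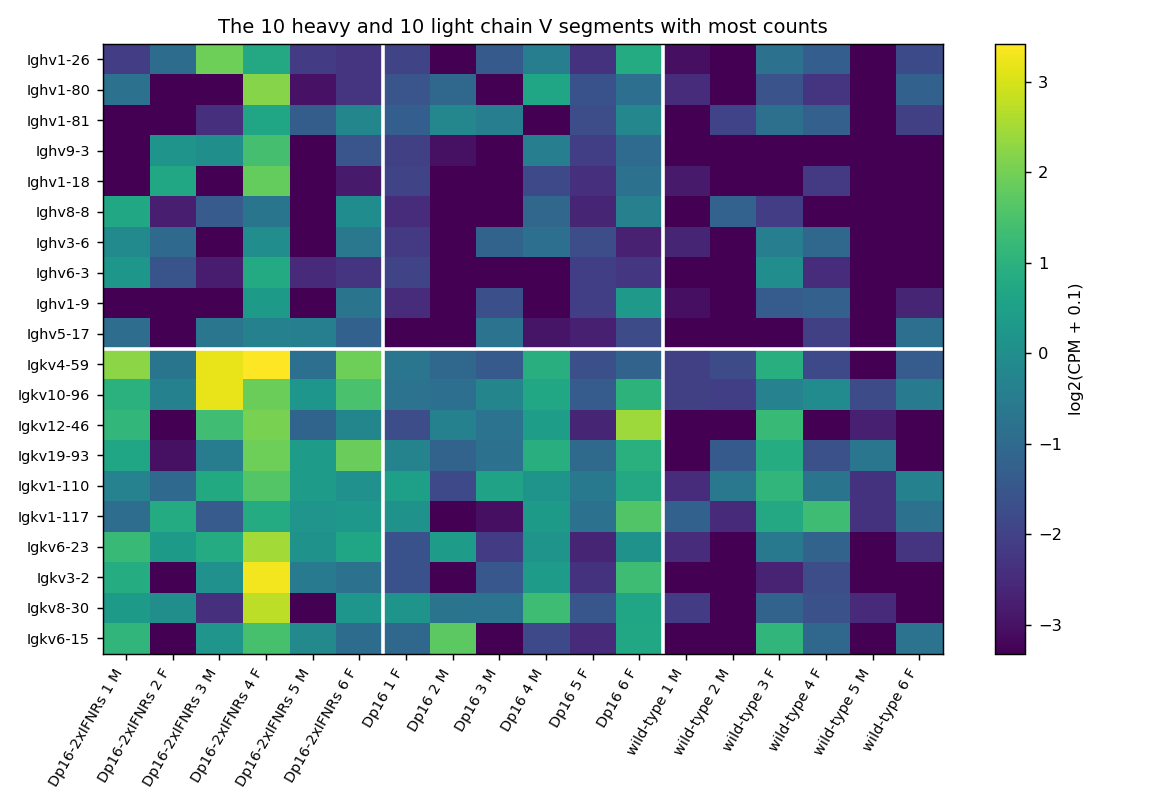
Level of the 10 heavy V and the 10 light V segments with most counts in each of the 18 livers, as log2(CPM + 0.1), with sex after the library name and white lines between genotypes and chains. Dp16-2xIFNRs library 4 stands out for Igkv3-2 (9.83 CPM, 49.7% of the counts of that segment), and Ighv9-3 is dark in all wild-type livers.

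In bulk tissue, fewer cells of a type and less RNA per cell cannot be told apart, so markers of the cells that make antibodies were read beside the segments. Jchain joins IgM and IgA into multimers and is made by plasma cells. It had 11.7, 22.3 and 44.1 CPM in the lowest, median and highest Dp16-2xIFNRs library, 2.47, 10.4 and 32.1 CPM in Dp16, and 1.15, 3.81 and 13.6 CPM in wild-type livers. Its high and low livers were those of Igkc, as the scatter of both genes shows. Its log2 fold change was 2.36 (SE 0.657, edgeR adjusted p = 0.243) in Dp16-2xIFNRs against wild-type and 1.68 (SE 0.666, adjusted p = 0.857) in Dp16 against wild-type. Of 18 plasma cell genes, 16 were tested and 0 were called in any of the 3 comparisons, and at an unadjusted p under 0.05 there were 5 higher and 0 lower in Dp16-2xIFNRs against wild-type, 2 higher and 0 lower in Dp16 against wild-type, and 3 higher and 1 lower in Dp16-2xIFNRs against Dp16. Over all genes tested, 3.43%, 2.52% and 2.21% were higher in these comparisons and 5.23%, 2.35% and 7.11% were lower. Mzb1, a chaperone of antibody assembly, had log2 fold changes of 2.16 (SE 0.850) and 0.22 (SE 0.837) to wild-type in Dp16-2xIFNRs and Dp16, and Pou2af1, a B cell coactivator, 2.19 (SE 0.817) and 2.03 (SE 0.817). Derl3, a gene of protein disposal in the endoplasmic reticulum, had 1.03 (SE 0.565) and -0.63 (SE 0.555), and 1.66 (SE 0.592) between the carriers. In each of the comparisons 11 of 16 tested genes had a positive value. The median over the list was 0.37 and 0.24 to wild-type, beside -0.02 and 0.01 over all genes tested. Sdc1, a plasma cell surface marker that hepatocytes also express, had medians of 350.4, 316 and 232 CPM in Dp16-2xIFNRs, Dp16 and wild-type livers. It makes up much of the list's sum, which ran over 607 to 1015, 461 to 870 and 451 to 841 CPM.

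For B cell surface and signalling genes the median log2 fold change to wild-type was 0.30 in Dp16-2xIFNRs and 0.19 in Dp16. Of 22 listed genes, 19 were tested and 0 called, with 1, 0 and 1 higher and 0 lower at an unadjusted p under 0.05 in Dp16-2xIFNRs against wild-type, Dp16 against wild-type and Dp16-2xIFNRs against Dp16. The shares of all genes tested were 3.43%, 2.52% and 2.21% higher, and 5.23%, 2.35% and 7.11% lower. The B cell sum ran over 22.7 to 48.6 CPM in Dp16-2xIFNRs, 26.6 to 31.5 CPM in Dp16 and 20.03 to 39.3 CPM in wild-type livers. The defining markers were present at low levels. Cd79a, the signalling chain of the B cell receptor, had medians of 1.40, 1.59 and 0.809 CPM, and Ms4a1 (CD20) 1.01, 0.428 and 0.714 CPM, in Dp16-2xIFNRs, Dp16 and wild-type livers.

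Of 7 genes of pre-B cells and V(D)J recombination, 2 were tested and 0 were called, with 1 higher at an unadjusted p under 0.05 in Dp16-2xIFNRs against wild-type and 0 in the other comparisons. That gene was Dntt, which adds bases at the joints of V, D and J segments. It averaged 15.0 ± 2.45 CPM in Dp16-2xIFNRs, 11.8 ± 4.43 CPM in Dp16 and 9.13 ± 2.97 CPM in wild-type livers (SD, n = 6 each), with a log2 fold change of 0.73 (SE 0.252, edgeR adjusted p = 0.428) in Dp16-2xIFNRs against wild-type. The recombinase genes Rag1 and Rag2 and the surrogate light chain genes Vpreb2 and Igll1 had no count in any library. Of 16 germinal centre and class switch genes, 12 were tested and 0 were called, with 0, 1 and 0 higher at an unadjusted p under 0.05 in Dp16-2xIFNRs against wild-type, Dp16 against wild-type and Dp16-2xIFNRs against Dp16. The 1 higher in Dp16 was Bcl6, a transcription factor of germinal centre B cells that other cells also express, at 12.3 ± 8.75 CPM in Dp16-2xIFNRs, 18.8 ± 8.42 CPM in Dp16 and 11.0 ± 5.71 CPM in wild-type livers. Receptors and carriers of antibodies showed no call either. Of 12 such genes 10 were tested and 0 called, with 1, 0 and 0 higher at an unadjusted p under 0.05. Beside these lists, 3.43%, 2.52% and 2.21% of all genes tested were higher in the same comparisons. Pigr, which carries polymeric IgA across hepatocytes and other epithelia, had medians of 695, 1083 and 893 CPM in Dp16-2xIFNRs, Dp16 and wild-type livers (log2 fold change to wild-type -0.41, SE 0.230, and 0.06, SE 0.230). Fcer1g, the signalling chain shared by Fc receptors, had medians of 18.2, 13.8 and 11.0 CPM.

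Markers of blood and of other immune cells moved the same way as the immunoglobulin genes in part, and their part in the result was not tested. Beside the counts that follow, 3.43% of all genes tested were higher and 5.23% lower in Dp16-2xIFNRs against wild-type. In Dp16 against wild-type these shares were 2.52% and 2.35%. Of 13 neutrophil and monocyte genes 11 were tested and 0 called, with 5 higher and 0 lower at an unadjusted p under 0.05 in each carrier genotype against wild-type, and their median log2 fold change was 1.00 and 0.62, and their sum ran over 9.52 to 25.05, 10.1 to 25.3 and 3.92 to 12.1 CPM in Dp16-2xIFNRs, Dp16 and wild-type livers. Of 8 erythroid genes 7 were tested and 0 called, with 5 and 2 higher in Dp16-2xIFNRs and Dp16 and medians of 2.03 and 1.40, and the sum ran over 91.0 to 324, 14.1 to 415 and 52.3 to 189 CPM. The haemoglobin gene Hba-a1 had medians of 14.2, 8.30 and 3.34 CPM. Of 18 T and NK cell genes 17 were tested and 0 called, with 4 and 1 higher and medians of 0.77 and 0.66, and the sum ran over 18.5 to 22.5, 7.81 to 29.1 and 6.24 to 25.5 CPM. The defining T cell gene Cd3e had medians of 1.59, 1.33 and 0.616 CPM. Of 8 genes of lymphoid stroma and lymphatic endothelium 5 were tested and 0 called, with 3 and 2 higher, medians of 0.87 and 0.97, and Madcam1 and Glycam1 at 0 in every library, and their sum ran over 9.91 to 19.2, 10.6 to 17.7 and 5.84 to 11.6 CPM. Lyve1, an endothelial gene of sinusoids and lymphatics, had log2 fold changes of 0.87 (SE 0.210, edgeR adjusted p = 0.142) and 0.97 (SE 0.211, adjusted p = 0.138) to wild-type.

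Of 12 Kupffer cell and macrophage genes all were tested, and 1 was called, lower in Dp16-2xIFNRs against wild-type (0.0986% of all genes were called). This was Fcna, a soluble lectin of liver macrophages, with 15.2, 22.0 and 26.8 CPM in the lowest, median and highest Dp16-2xIFNRs library, 18.6, 21.5 and 30.4 CPM in Dp16, and 30.1, 36.9 and 48.2 CPM in wild-type livers (log2 fold change -0.84, SE 0.127, edgeR adjusted p = 0.00803). Both carrier genotypes lay below wild-type, except that the highest Dp16 liver exceeded the lowest wild-type liver. Over the whole list the median log2 fold change to wild-type was -0.14 in Dp16-2xIFNRs and -0.10 in Dp16. The list's sum ran over 466 to 588, 433 to 633 and 436 to 890 CPM in Dp16-2xIFNRs, Dp16 and wild-type livers. Of 9 hepatocyte genes 9 were tested and 0 called, and their sum ran over 97122 to 153780 CPM in Dp16-2xIFNRs, 89708 to 136000 CPM in Dp16 and 100120 to 142100 CPM in wild-type livers.

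The sample descriptions hold a number of unstated meaning, which 5 sets of livers from different genotypes share. Within these sets Igkc was 115 CPM in Dp16-2xIFNRs, 25.03 in Dp16 and 5.71 in wild-type in the first, 271 CPM in Dp16-2xIFNRs and 33.0 in Dp16 in the second, and 126 CPM in Dp16-2xIFNRs and 7.05 in wild-type in the third. In the fourth it was nearly level, at 53.4 CPM in Dp16-2xIFNRs and 49.9 in wild-type, and in the fifth it was 106 CPM in Dp16-2xIFNRs and 125 in Dp16. The first 3 digits of the number split the livers into a set of 11 and a set of 7. In the larger set Igkc ran over 42.3 to 271, 25.03 to 49.2 and 5.71 to 49.9 CPM in Dp16-2xIFNRs, Dp16 and wild-type livers, and the IgG sum over 7.93 to 122, 12.3 to 14.4 and 1.75 to 12.2 CPM. In the smaller set Igkc ran over 106 to 126, 11.1 to 125 and 7.05 to 20.5 CPM, and the IgG sum over 22.4 to 34.5, 9.49 to 46.1 and 0.844 to 3.59 CPM. The carrier medians were above the wild-type median in both sets.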

How the data were processed

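Liver polyA RNA from 18 mice was sequenced as strand-specific paired-end reads of 150 bases, per the labels' protocols. The deposited counts are whole reads per gene, made by the authors, per the submitters' processing notes, with tools that include bcl2fastq, FastQC 0.11.5, HISAT2 2.1.0, SAMtools 1.5, HTSeq 0.6.1 and the GRCm38 build. The strand setting and the handling of reads shared between genes are not stated in the sources used here. The deposited RPKM values were checked and equal these counts per gene length and column total.

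Counts were tested with edgeR 4.0.16 in R 4.3.3: TMM factors, a filter on low counts by group, a robust quasi-likelihood fit of genotype and sex to all 18 libraries, and p-values adjusted over all 15208 genes tested. The sex interaction was a separate fit. CPM were not log transformed unless stated. Libraries of a genotype are separate mice by their labels; where litters or batches were shared is not stated. Alternatives were DESeq2 1.42.0, limma-voom 3.58.1, other scaling, filters, covariates, blocks and left-out libraries.

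Members and gene lists were chosen with earlier results of these data known. The rule for genes to name took all constant members, the 10 heavy and 10 light V segments with most counts (some are only in the plot of V segments), every member called, the 4 genes of each list with the smallest p, and Jchain, Mzb1, Sdc1, Ms4a1, Cd79a and Pigr; not all are printed, and markers at 0 or of other cell types were added. A gene under that rule is not reported here. Hinge and V end sequences come from GRCm38 with GENCODE M21. Intervals and floors cover counting error only.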

Additional observations from a re-analysis of the deposited data

Results flagged for a closer look

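In 9 of 120 groups of 6 livers examined, the highest or lowest liver stood far from the rest (Dixon's gap ratio above its 95% critical value, on log2 CPM), where chance alone gives about 1 in 20. Dp16 library 6, a female, was high for Ighg2c (4.318), Ighg2b (4.453) and the summed IgG constant genes (5.527), and without it the Dp16 mean of that sum was 12.4 CPM in place of 18.0 CPM. Dp16-2xIFNRs library 4, a female, was high for Ighg1 (3.069). Wild-type library 3, a female, was high for the sum of all members (7.257), for Igkv12-46 (1.186) and for Ighv6-3 (-0.1089), and without it the wild-type mean of the sum of all members was 51.3 CPM in place of 68.2 CPM. The remaining pair, both low, are libraries with no count, which the log scale with a prior count of 2 puts at -4.579: wild-type library 2 for Iglc2 and Dp16-2xIFNRs library 2 for Ighv5-17.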

How the results depend on the processing

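Among constant genes, log2 fold changes changed sign under some alternatives only where they had not passed the test. In Dp16 against wild-type these were Ighd (0.25 by limma-voom and 0.0837 with the description number as a random block) and Ighm (-0.21 with that block). In Dp16-2xIFNRs against wild-type they were Ighd (-0.0232) and Iglc3 (-0.36), and in Dp16-2xIFNRs against Dp16 Ighd (-0.11) and Iglc3 (-0.42), with that block, and Iglc3 (-0.65) by limma-voom. With 1 library left out in turn, the log2 fold change in Dp16 against wild-type ranged between -0.33 and 0.40 for Ighm and between -0.51 and 0.19 for Ighd. In Dp16-2xIFNRs against wild-type Ighd ranged between -0.26 and 0.66. In Dp16-2xIFNRs against Dp16 the ranges were -0.17 to 0.81 for Ighg1, -0.0828 to 0.72 for Ighd, -0.47 to 0.90 for Iglc3 and -0.29 to 1.12 for Iglc1. The cause of these sign changes was not tested. The number of members called in Dp16-2xIFNRs against wild-type, 3 as reported, was 16 by DESeq2, 0 by limma-voom, 1 without the sex term and 5 with the replicate block; with 1 library left out it ran between 0 and 5. In Dp16 against wild-type, 0 as reported, it was 6 by DESeq2 (Ighg1, Ighg2b, Ighg2c and Ighg3 among them), and in Dp16-2xIFNRs against Dp16, 0 as reported, it was 1 by DESeq2; both were 0 with any 1 library left out. In female against male, 1 as reported, it was 6 by DESeq2, 2 by limma-voom, 3 by library totals, 0 with a filter of at least 1 CPM in 6 libraries and 0 with the description number as a random block; with 1 library left out it ran between 0 and 3. Members higher at an unadjusted p under 0.05 in Dp16 against wild-type, 17 as reported, numbered 6 by limma-voom, 53 with no filter, 9 with the 1 CPM filter, 7 with the random block, 8 with only those 2 groups fitted, and 10 to 25 with 1 library left out. In Dp16-2xIFNRs against wild-type, 34 as reported, they numbered 79, 12 and 22 with no filter, the 1 CPM filter and only 2 groups, and 24 to 39 with 1 library left out. In Dp16-2xIFNRs against Dp16, 6 as reported, they numbered 12 by DESeq2, 19 with no filter, 2 with the 1 CPM filter, and 2 to 14 with 1 library left out. Filters change how many members are tested, and for the other settings the cause was not tested. The share of all genes under each alternative is not given here. These counts therefore show only how far the number of members moves with the setting. Leaving out both Dp16 libraries 4 and 5, an alternative chosen after seeing the data, gave 9 members called in Dp16-2xIFNRs against wild-type, 3 in female against male and 11 higher in Dp16-2xIFNRs against Dp16. Igkc, at an adjusted p of 0.0713 in Dp16-2xIFNRs against wild-type (edgeR), was called with the replicate block, with the random block, with only 2 groups and by DESeq2. The titles' replicate numbers were not taken to pair the livers: libraries sharing a number had correlations over 0.1 in every pair only for number 1 (0.137 to 0.36), and down to -0.245 otherwise. For the description number, the random block fit gave a consensus correlation of 0.407 between libraries that share it. The main fit had no term for that number and treated the 18 libraries as independent. Low counts limit the V segments most: 65 of 175 members were tested.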
